A study of Mus musculus with 12 samples.

Results

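The CC chemokine ligands are 10 genes of thioglycolate-elicited mouse peritoneal macrophages (PMφs): Ccl2, Ccl3, Ccl4, Ccl5, Ccl7, Ccl8, Ccl9, Ccl12, Ccl17 and Ccl22. They were taken by name from a table of 43278 gene symbols, with earlier results of these data known. The table held 12 poly(A) RNA-seq libraries, 3 each of control PMφs, PMφs with accumulated oxidized low-density lipoprotein (oxLDL), PMφs stimulated with lipopolysaccharide (LPS), and PMφs with oxLDL followed by LPS (oxLDL+LPS). All groups were C57BL/6J cells, and the mice, male and female littermates, were 8 to 12 weeks old. They had received 4% aged thioglycolate, were lavaged on day 4, and their cells were pooled from up to 10 mice and left to adhere for 18 h. The oxLDL groups were cultured for 24 h with 100 µg/ml human medium oxLDL, and the LPS groups received 10 ng/ml ultrapure LPS. The methods give up to 6 h of LPS for the study as a whole and no duration for these libraries. Each library is 1 pool of cells in 1 condition, and libraries with the same replicate number in the 4 groups deviated from their group means together, so each comparison is also given with the replicate number as a block. Values are normalized counts: the authors scaled the reads of each library by its own factor and deposited whole numbers.

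CC chemokines are small secreted proteins, named for a pair of adjacent cysteines, that draw leukocytes along a gradient through G protein-coupled receptors. Macrophages make many of them when Toll-like receptor 4 senses LPS, through NF-κB and through a type I interferon loop. Ccl2, Ccl7 and Ccl12 are ligands of CCR2 and recruit monocytes, and Ccl8 is a related gene of the same cluster that in the mouse signals through CCR8. Ccl3, Ccl4 and Ccl5 attract T cells, NK cells and monocytes, and Ccl9 binds CCR1. Ccl17 and Ccl22 bind CCR4 on regulatory and type 2 helper T cells and are usually linked to dendritic cells and to interleukin-4 signaling.

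The genes lie in 3 groups in the genome. Positions are those of GENCODE release 21 on GRCm38, the build of the counts. Ccl2 (chr11:82035571-82037453), Ccl7 (chr11:82045712-82047525), Ccl12 (chr11:82101845-82103400) and Ccl8 (chr11:82115185-82116799) are on the plus strand within 81.2 kb. Ccl5 (chr11:83525778-83530518), Ccl9 (chr11:83572919-83578636) and Ccl3 (chr11:83647844-83649355) on the minus strand, and Ccl4 (chr11:83662584-83664683) on the plus strand, are within 139 kb of the same chromosome. Ccl22 (chr8:94745590-94751699) and Ccl17 (chr8:94810453-94812036), both on the plus strand, together span 66.5 kb from the start of Ccl22 to the end of Ccl17. No exon of the 10 genes overlapped an exon of another gene. No run of 50 bases in their transcripts was shared with another gene's transcript, except in Ccl9, where 1.97% of such runs were.

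Promoters of 4 ligands are shown because they pair neighbors that differed in their LPS response: Ccl12 and Ccl8 from the first group, and Ccl3 and Ccl9 from the second. Each line gives the 250 bases before the RefSeq start site (GRCm38.p6), 5′ to 3′ on the strand of the gene, with matches to any searched motif in capitals. They cover chr11:82101595-82101844 (plus strand), chr11:82114935-82115184 (plus strand), chr11:83649379-83649628 (minus strand) and chr11:83578637-83578886 (minus strand), in the order printed.
Ccl12: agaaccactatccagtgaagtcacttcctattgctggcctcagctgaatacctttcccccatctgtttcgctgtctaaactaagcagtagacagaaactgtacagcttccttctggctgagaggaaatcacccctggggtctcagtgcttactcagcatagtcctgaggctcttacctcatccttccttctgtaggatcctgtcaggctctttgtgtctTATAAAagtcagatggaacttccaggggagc
Ccl8: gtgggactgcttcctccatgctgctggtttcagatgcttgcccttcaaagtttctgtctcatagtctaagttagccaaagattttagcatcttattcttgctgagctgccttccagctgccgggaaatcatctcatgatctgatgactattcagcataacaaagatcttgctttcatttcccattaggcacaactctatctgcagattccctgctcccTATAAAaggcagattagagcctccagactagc
Ccl3: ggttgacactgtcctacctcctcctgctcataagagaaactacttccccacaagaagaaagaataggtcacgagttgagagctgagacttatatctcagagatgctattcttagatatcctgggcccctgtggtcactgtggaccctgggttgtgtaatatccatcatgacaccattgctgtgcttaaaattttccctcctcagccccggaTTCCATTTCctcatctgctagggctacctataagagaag
Ccl9: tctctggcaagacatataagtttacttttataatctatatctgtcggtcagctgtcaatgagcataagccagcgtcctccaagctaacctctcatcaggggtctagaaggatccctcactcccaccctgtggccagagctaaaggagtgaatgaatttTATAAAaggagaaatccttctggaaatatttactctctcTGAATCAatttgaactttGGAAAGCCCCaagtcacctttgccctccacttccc

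The motifs were the NF-κB consensus, the core of the interferon-stimulated response element GAAANNGAA, the interferon-γ-activated site core TTCNNNGAA and the AP-1 site TGANTCA, each on both strands, and the TATA box TATAAA on the strand of the gene. In Ccl12 and Ccl8 the capitals mark a TATA box starting 31 and 32 bases before the start site. In Ccl3 they mark a response element core on the opposite strand, whose first base is 39 bases before the start. In Ccl9 they mark, in order, a TATA box 92 bases, an AP-1 site 53 bases and an NF-κB consensus 35 bases before the start. Of 32536 mouse promoters of the same length, 7.28% held the NF-κB consensus, 7.15% the response element core, 7.04% the activated site core, 6.73% the AP-1 site and 7.55% the TATA box. Promoters were at hand for 6 of the 10 ligands. That of Ccl17 held an activated site core, and that of Ccl22 held none of the 5 motifs.

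The libraries held 16725738 to 26178915 reads, as estimated from the steps of the deposited values, and 17152972 to 26384551 normalized counts. LPS induced Tnf, from 61 to 68 in the control libraries to 36687 to 85240 with LPS. The oxLDL scavenger receptor gene Cd36 ranged from 32725 to 40346 in control and from 53483 to 93423 in oxLDL libraries. The 8 macrophage markers summed to 231967 to 347950 in every library. Of the defining genes of other leukocytes, Ly6g and Ear6 were at 0 in all 12 libraries and Ncr1, Epx, Cd3d and Cd3e did not exceed 2. The natural killer cell list summed to 6 to 9 without LPS and to 73 to 160 with LPS, with 6 of its 7 genes under 10 throughout and Klrk1 carrying the sum. The T cell list summed to 19 to 41 without LPS and 88 to 249 with LPS, again with 6 of 8 genes under 10 and Lck carrying the rise. The dendritic cell list summed to 99 to 222 without LPS and 153 to 419 with LPS. In the same order, Ciita was at 24 to 146 and 60 to 321, and Zbtb46 at 16 to 52 and 58 to 84. Xcr1 was at 0 to 1 and 3 to 13, Clec9a at 15 to 37 and 4 to 8, and Flt3 at 6 or less. The neutrophil list summed to 39 to 61 without LPS and 81 to 259 with LPS, carried by S100a8. The eosinophil list summed to 188 to 386 without LPS and 57 to 124 with LPS, carried by Siglecf. The B cell list summed to 44 to 92 and the mast cell list to 36 to 121 in every library. The 10 mesothelial and fibroblast markers summed to 18534 to 32024 in the 4 libraries of replicate number 1, 14620 to 17623 in number 2 and 5432 to 6310 in number 3. A higher level per library can come from more RNA per cell or from more cells of a kind, and these cannot be told apart here.

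Without stimulation the ligands spanned a wide range, with Ccl3, Ccl9 and Ccl4 highest per length and Ccl12 not detected. Levels of different genes were compared per kilobase of exon, as the union of the exons of all transcripts of a gene in GENCODE release 21. The counts used release 4. The length was 3045 bases for Ccl9, 2325 for Ccl22 and 660 for Ccl4, and the order of the ligands depends on it. In control PMφs Ccl3 stood first at 752 ± 98.2 normalized counts per kb (SD, n = 3), and its libraries did not overlap those of Ccl9 at 355 ± 131 per kb. Ccl4 followed at 278 ± 15.8 per kb and overlapped Ccl9. Ccl2 at 156 ± 85.6 per kb lay below Ccl4 without overlap. Ccl5 at 66.0 ± 74.3 overlapped Ccl2, and Ccl5, Ccl7 at 48.3 ± 35.9 and Ccl8 at 36.5 ± 15.8 per kb overlapped each other in this order, and Ccl22 and Ccl17 were at 3.44 ± 2.40 and 2.59 ± 2.25 per kb.

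**Figure D1:**
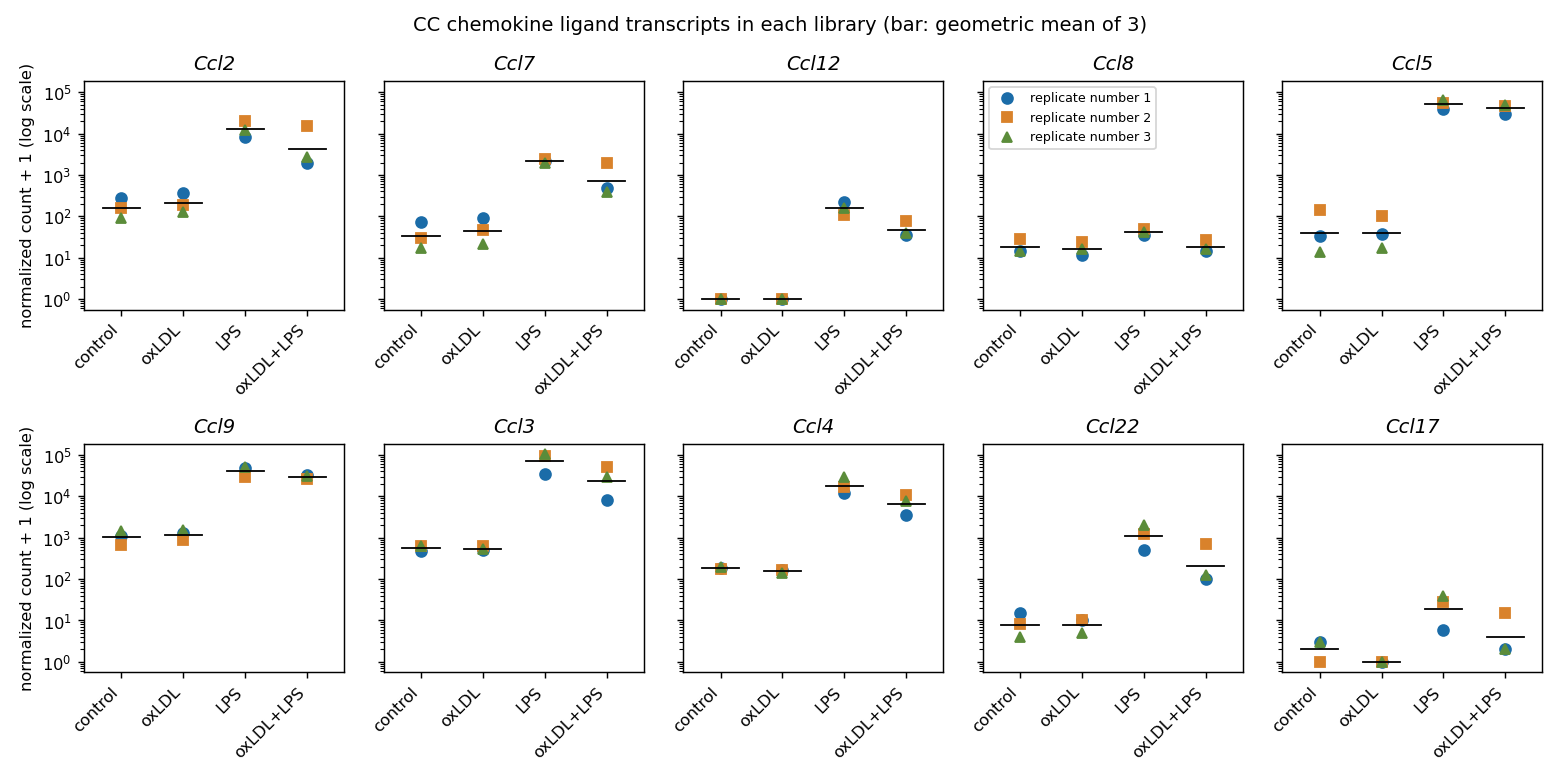
Normalized count + 1 (log axis) of each CC chemokine ligand in the 4 groups, with 1 point per library, shape and color by replicate number, and a bar at the geometric mean of 3 libraries. In 8 panels the LPS and oxLDL+LPS points lie above every control and oxLDL point, and the exceptions are Ccl8, with oxLDL+LPS libraries at 14, 26 and 15, and Ccl17, with 1, 14 and 1.

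LPS raised the transcripts of the monocyte-attracting ligands, by 77.0-fold for Ccl2 and 56.5-fold for Ccl7 as ratios of group means, and from no detected level for Ccl12. Ccl2 was at 284, 155 and 93 normalized counts in control replicates 1 to 3 and at 8418, 20076 and 12454 with LPS. Its log2 fold change was 6.31 ± 0.43 (SE), with a limma adjusted p = 1.47e-05. Ccl7 was at 71, 29 and 16 in control and 2168, 2452 and 1938 with LPS, a log2 fold change of 6.03 ± 0.46 with adjusted p = 2.51e-05. For both genes every LPS library lay above every control library. The control and oxLDL levels of both genes were highest in number 1 and lowest in number 3, as were the mesothelial and fibroblast marker sums given above, and the part of such cells in these levels was not tested.

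Ccl12 was the ligand with no detected transcript before LPS. It was at 0 in all 3 control and all 3 oxLDL libraries, and at 219, 110 and 161 with LPS. Against a floor of 3 reads over the group, a mean of 0.846 normalized counts, Ccl12 was at least 193-fold higher with LPS, and at least 124-fold without control replicate 1, which raises the floor. The limma adjusted p was 3.14e-06, but the fitted log2 fold change depends on the pseudocount of 1 and is not used as a size.

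Ccl8, the neighbor of Ccl12 in the same cluster, moved least of the tested ligands. It was at 14, 28 and 14 in control and 35, 49 and 40 with LPS. The groups did not overlap, and the log2 fold change was 1.17 ± 0.34 with adjusted p = 0.0203. The call was lost when libraries were scaled to equal totals, where the log2 fold change was 0.70 and the adjusted p = 0.107. That scaling moved the median of all genes by -0.48 on the log2 scale in the LPS comparison and by -0.41 in the one among oxLDL cells, and the other tested ligands were called higher under it too. These values rest on 17 to 53 reads per library.

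With LPS Ccl3, Ccl4 and Ccl5 were the most abundant of the 10 transcripts per length, and the CCR1 ligand Ccl9 rose as well. Ccl5 was at 32, 145 and 13 in control, with replicate 2 above the others, and at 38551, 54765 and 65284 with LPS. Its log2 fold change of 10.31 ± 0.74 had adjusted p = 1.87e-05. Ccl3 was at 489, 624 and 614 in control and 34668, 93916 and 104907 with LPS, a log2 fold change of 6.93 ± 0.39 with adjusted p = 5.11e-06. Ccl4 was at 180, 175 and 195 in control and 12248, 16622 and 28877 with LPS, a log2 fold change of 6.61 ± 0.28 with adjusted p = 1.14e-06. Ccl9, already at 1116, 664 and 1461 in control, was at 47249, 29321 and 52092 with LPS. Its log2 fold change was 5.34 ± 0.32 with adjusted p = 6.77e-06. No LPS library of these 4 genes overlapped a control library.

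Both CCR4 ligands were low before LPS, and they differed in how far they rose. Ccl22 was at 14, 7 and 3 in control and 509, 1220 and 2044 with LPS, a log2 fold change of 7.11 ± 0.60 with adjusted p = 4.37e-05. Ccl17 was at 2, 0 and 2 in control and 5, 27 and 37 with LPS. It did not reach the level needed for the fit, 10 in at least 3 libraries, and its 2 groups did not overlap (exact permutation test, two-sided p = 0.1, the smallest that 3 against 3 allows). With LPS Ccl17 stood on 5, 29 and 26 reads per library.

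Counted over the family, all 9 ligands tested were called higher with LPS at an adjusted p under 0.1, where 61.7% of 13023 genes were called and 31.4% were called higher. Scaled to equal totals, 16.7% of genes were called higher and 55.7% lower, with 8 of the 9 ligands still called higher. Ccl12 and Ccl22 reached the filter only through their LPS libraries. The other 7 had at least 10 in every library of the comparison, and the median of their log2 fold changes was 6.31, against -0.00097 for all genes tested. Libraries of the 10 ligands did not overlap between control and LPS, higher in each case, which 32.1% of tested genes also showed. Together the 10 transcripts made up 0.0123% ± 0.0016 of normalized counts in control and 0.852% ± 0.194 with LPS (SD, n = 3).

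With LPS the order per length was led by Ccl3 at 101606 ± 49323 normalized counts per kb (SD, n = 3), then Ccl5 at 55069 ± 14028 and Ccl4 at 29165 ± 13061. Each overlapped the next. Ccl9 at 14085 ± 3939 and Ccl2 at 11994 ± 5202 per kb came below Ccl4 without overlap and overlapped each other. Ccl7 at 2729 ± 321 per kb stood apart from both neighbors. Ccl22 at 541 ± 330 and Ccl12 at 304 ± 102 per kb overlapped, and Ccl8 and Ccl17 closed the order at 80.9 ± 13.9 and 44.7 ± 31.9 per kb.

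**Figure D2:**
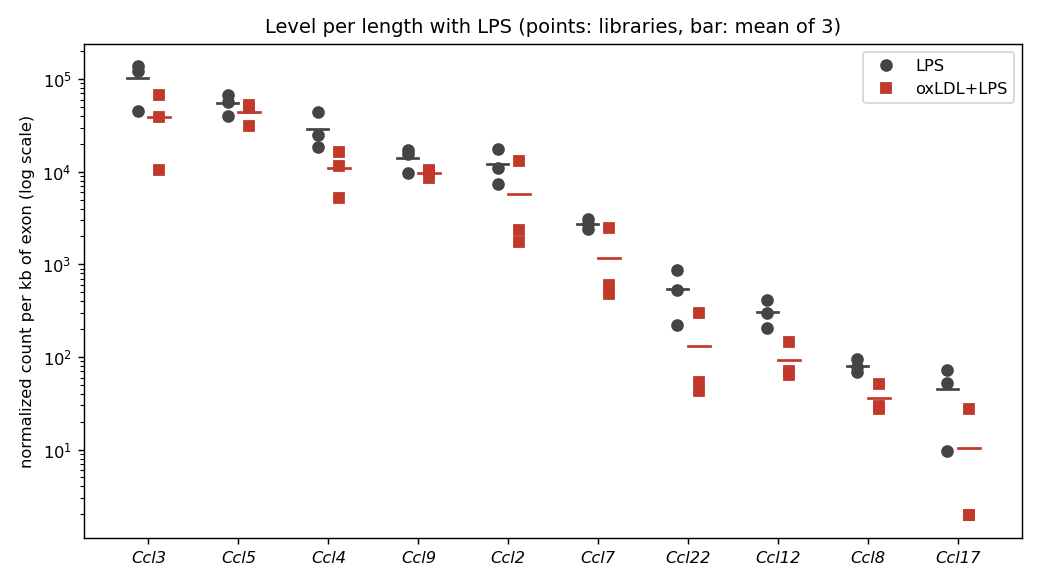
Normalized count per kb of exon (log axis) of each ligand in LPS (circles) and oxLDL+LPS (squares) libraries, with a bar at the mean of 3, ordered by the LPS mean. The levels span from 101606 for Ccl3 to 44.7 for Ccl17 with LPS, and in oxLDL+LPS the mean of Ccl5 (44216) lay above that of Ccl3 (38805), with overlapping libraries.

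In PMφs with accumulated oxLDL, LPS also raised the ligands, and for Ccl8 no change was detected. Ccl5 was at 36, 100 and 16 in oxLDL and 29969, 47169 and 50205 in oxLDL+LPS libraries, a log2 fold change of 10.02 ± 0.58 with limma adjusted p = 1.29e-05. Ccl9 went from 1268, 880 and 1500 to 32140, 26058 and 31188, a log2 fold change of 4.64 ± 0.20 with adjusted p = 3.03e-06. Ccl3 went from 491, 623 and 538 to 7953, 51710 and 29510. Its log2 fold change was 5.39 ± 0.60, with adjusted p = 0.00032. Ccl4 went from 168, 169 and 143 to 3470, 10732 and 7559, a log2 fold change of 5.35 ± 0.37 with adjusted p = 3e-05. In each of these 4 the groups did not overlap.

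The monocyte-attracting and CCR4 ligands also rose, by amounts that differed between the pools. Ccl2 went from 376, 186 and 130 in oxLDL to 1970, 14896 and 2690 in oxLDL+LPS, a log2 fold change of 4.35 ± 0.76 with adjusted p = 0.00271. Ccl7 went from 90, 47 and 20 to 479, 1963 and 381, a log2 fold change of 3.98 ± 0.72 with adjusted p = 0.00334. Ccl22 went from 9, 9 and 4 to 99, 686 and 124, a log2 fold change of 4.69 ± 0.72 with adjusted p = 0.00156. In all 3 genes replicate 2 of oxLDL+LPS was far above replicates 1 and 3. Ccl12 was at 34, 77 and 38 in oxLDL+LPS, at least 55.1-fold higher than the same floor over the oxLDL libraries. Ccl17 was at 0 in every oxLDL library and at 1, 14 and 1 in oxLDL+LPS, at least 5.92-fold higher by the same bound. That bound rests on replicate 2 of oxLDL+LPS and was 1.11-fold without it. Without replicate 3 of oxLDL, the deepest of the 3, the bounds were 33.4-fold for Ccl12 and 3.59-fold for Ccl17. Ccl8 was at 11, 23 and 15 in oxLDL and 14, 26 and 15 in oxLDL+LPS. Its log2 fold change of 0.16 had a 95% interval from -0.76 to 1.09 and adjusted p = 0.766.

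Of the 9 ligands tested in oxLDL cells 8 were called higher, beside 54.5% of 12900 genes called and 28.2% called higher. Scaled to equal totals, 15.8% of genes were called higher and 51.8% lower. Ccl12 and Ccl22 again entered through their oxLDL+LPS libraries, and the other 7 had a median log2 fold change of 4.64, against -0.018 for all genes. Libraries of 9 ligands did not overlap between the groups, higher with LPS, as did 29.6% of tested genes. The block on the replicate number left the calls of the ligands in both LPS comparisons as they were.

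**Figure D3:**
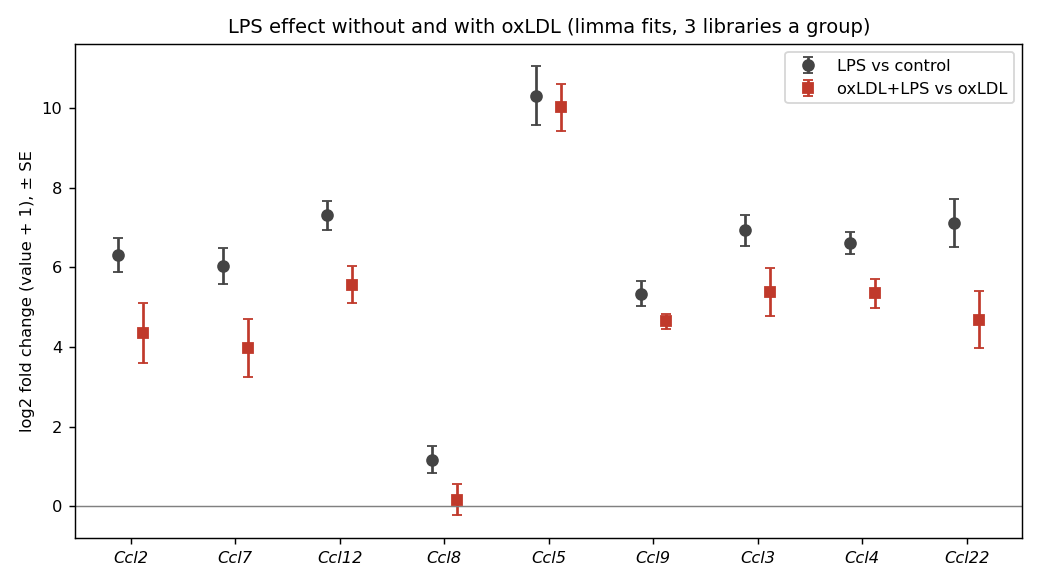
Fitted log2 fold change on the value + 1 scale (limma, ± SE, 3 libraries a group) for LPS vs control (circles) and oxLDL+LPS vs oxLDL (squares), for the 9 ligands tested. Each square lies below its circle, from 10.31 and 10.02 for Ccl5 to 7.11 and 4.69 for Ccl22, and only Ccl8 reaches 0 within its SE.

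In the absence of LPS, oxLDL left the ligands near their control levels. Ccl2 was at 376, 186 and 130 with oxLDL against 284, 155 and 93, higher in each replicate number by 0.40, 0.26 and 0.48 on the log2 scale. Ccl7 was higher by 0.34, 0.68 and 0.30, and Ccl9 by 0.18, 0.41 and 0.04. Over all genes tested 17.5% were higher in all 3 numbers. Ccl4 was at 168, 169 and 143 against 180, 175 and 195, all oxLDL libraries below all control libraries, as in 3.91% of genes. Its log2 fold change was -0.20 ± 0.12, with a 95% interval from -0.47 to 0.08.

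No ligand passed the test without the block, where 0 of 12751 genes were called by limma (percent called 0) and 381 had an unadjusted p under 0.05. The 7 ligands tested had log2 fold changes from -0.20 to 0.44 with a median of -0.029, against -0.0051 for all genes. With the replicate number as a block, Ccl2 was called higher, with a log2 fold change of 0.38 ± 0.09 and adjusted p = 0.0606, beside 4.71% of genes called and 1.8% called higher. Ccl9 had 0.21 ± 0.06 with adjusted p = 0.131, and Ccl7 0.44 ± 0.19 with adjusted p = 0.271. The interval of Ccl5, from -2.20 to 2.15 without the block and from -0.48 to 0.43 with it, shows how much of its spread lay between pools. Ccl12, Ccl17 and Ccl22 were below the filter, at 0 for Ccl12 in all 6 libraries and at most 14 for Ccl22.

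With LPS, all 10 ligands were lower in PMφs with accumulated oxLDL than in PMφs without, in each of the 3 replicate numbers, which 24.4% of tested genes also showed. The size differed between ligands and between pools. As a percentage of the LPS library with the same number, Ccl2 was at 23.4%, 74.2% and 21.6%, and Ccl7 at 22.1%, 80.1% and 19.7%. Ccl12 was at 15.5%, 70.0% and 23.6%. Ccl8 was at 40.0%, 53.1% and 37.5%, although its levels before LPS did not differ detectably. In this cluster replicate number 2 kept more of its LPS level than numbers 1 and 3.

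The ligands of the second cluster differed among themselves. Ccl3 was at 22.9%, 55.1% and 28.1% of the LPS level and Ccl4 at 28.3%, 64.6% and 26.2%. Ccl9 kept 68.0%, 88.9% and 59.9%, and Ccl5 kept 77.7%, 86.1% and 76.9%. Thus Ccl5 and Ccl9 stayed above Ccl3 and Ccl4 in every number. Of the CCR4 ligands, Ccl22 was at 19.5%, 56.2% and 6.07%, and Ccl17, on few reads, at 20.0%, 51.9% and 2.70%. Replicate number 2 had the highest percentage for 10 of 10 ligands, with a median of 67.3%, against 23.2% in number 1 and 24.9% in number 3.

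**Figure D4:**
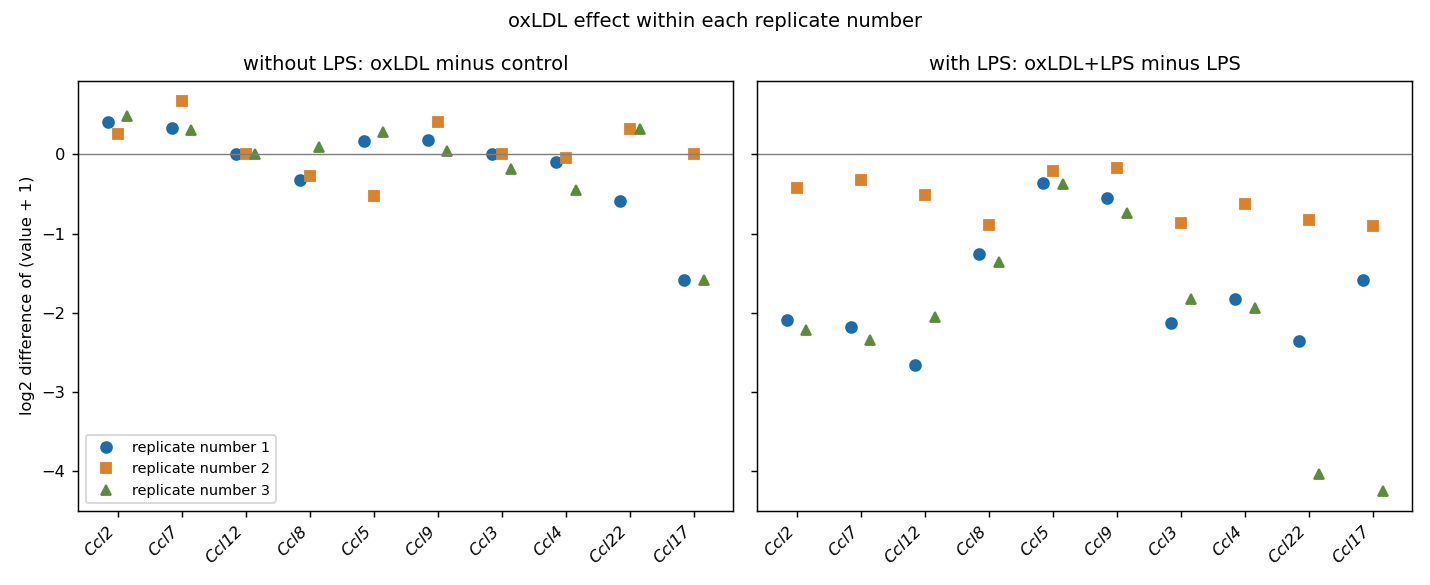
Log2 difference of normalized count + 1 between libraries of the same replicate number, for oxLDL minus control (left) and oxLDL+LPS minus LPS (right), with shape and color by number. All points on the right lie below 0, with number 2 nearest to 0 for each ligand, from -0.17 for Ccl9 to -0.90 for Ccl17, while those on the left lie on both sides of 0.

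In the LPS pairs, number 2 also had the smallest difference in 2 genes of the oxLDL response. Hmox1, a heme-degrading enzyme of the oxidative stress response, was higher in oxLDL+LPS than in LPS by 1.78, 0.60 and 2.34 on the log2 scale in numbers 1 to 3, and Cd36 by 1.16, 0.56 and 1.22. Both were called with the block (adjusted p = 0.0109 and 0.00984) and not without it (0.698 for each). Without LPS, Hmox1 was higher by 0.40, 0.32 and 1.13 and Cd36 by 0.75, 0.71 and 1.34, so that number 2 was close to number 1 and number 3 stood apart. The natural killer cell list, carried by Klrk1, summed to 160, 138 and 160 with LPS and to 73, 129 and 76 in oxLDL+LPS. The part of these genes in the differences of the ligands was not tested.

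Without the block no ligand passed the limma test for oxLDL+LPS vs LPS, and 0 of 12786 genes did (percent called 0), with 890 at an unadjusted p under 0.05. Of the 10 ligands 5 had an unadjusted p under 0.05: Ccl4, Ccl7, Ccl8, Ccl12 and Ccl22. Ccl17 had at least 10 in only 3 of the 6 libraries. The other 9 had at least 10 in all, and the median of their log2 fold changes was -1.58, against -0.012 for all genes. Libraries of Ccl4, Ccl8 and Ccl12 did not overlap, all lower with oxLDL, as in 6.39% of tested genes.

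With the replicate number as a block, 9 of 10 ligands were called lower, beside 13.2% of genes called and 8.74% called lower. Ccl2 fell by 1.58 ± 0.28 on the log2 scale with adjusted p = 0.0135. Ccl3 fell by 1.60 ± 0.21 with adjusted p = 0.00643, and Ccl4 fell by 1.46 ± 0.21 with adjusted p = 0.008. Ccl22 fell by 2.40 ± 0.44 with adjusted p = 0.0152. Ccl7 fell by 1.61, Ccl12 by 1.74, Ccl8 by 1.17 and Ccl17 by 2.24, with adjusted p values from 0.0179 to 0.0751. Ccl9 fell by 0.49 ± 0.14 with adjusted p = 0.0676. Ccl5 had a log2 fold change of -0.32 ± 0.13, with a 95% interval from -0.61 to -0.03 and adjusted p = 0.169. Leaving out 1 replicate number leaves the blocked fit 1 residual degree of freedom a gene. Counts of calls from such fits are therefore a description and cannot show which pools the calls rest on. With number 1 left out of the blocked fit 0 ligands were called, beside 71 genes in all, and with number 3 left out 0 ligands and 0 genes. With number 2 left out 9 of the 9 ligands tested were called lower, beside 2945 genes called (23.9%), 1846 of them lower. Without the block, leaving out replicate 2 of oxLDL+LPS gave 3 calls among the 9 ligands tested, for Ccl2, Ccl7 and Ccl12. In that fit 91 of 12627 genes were called, 29 of them lower.

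The direct test of whether oxLDL acted differently with and without LPS, the interaction over all 12 libraries, gave 0 calls among 13482 genes without the block (percent called 0) and 0 with it (percent called 0). At an unadjusted p under 0.05 there were 418 and 967 genes. The estimates of the 10 ligands were all negative, from -0.29 for Ccl5 to -2.42 for Ccl22, and equally give the difference between the LPS effects in oxLDL and control cells. For Ccl12, at 0 before LPS in both, the estimate is the same as the oxLDL+LPS vs LPS one. In the blocked fit 8 of the 10 had an unadjusted p under 0.05, Ccl9 with the smallest at 0.0024, but every adjusted p was at least 0.657. A difference in the oxLDL effect between unstimulated and stimulated PMφs was therefore not shown for any ligand.

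Other genes of the family moved little or were low. Of 14 other CC ligands, 4 could be tested for LPS vs control, with 1 called higher and 1 lower without the block, and 2 higher and 1 lower with it. Ccl24, an eosinophil attractant, was at 8, 3 and 4 in control and 56, 29 and 116 with LPS (log2 fold change 3.37, adjusted p = 0.00139). It was at 27, 23 and 12 in oxLDL+LPS and was called lower than with LPS only with the block (adjusted p = 0.081). Ccl27a had a log2 fold change of -0.95 with LPS and adjusted p = 0.0288. Ccl6, a CCR1 ligand that lies near Ccl9, was abundant in every group, at 7569, 5864 and 9366 in control and 13207, 6662 and 10925 with LPS. It was not called without the block (limma adjusted p = 0.242) and was called higher with it (log2 fold change 0.40, limma adjusted p = 0.0357). Ccl25 was not called in either fit, with a log2 fold change of 0.27 and adjusted p = 0.44 without the block.

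Among 15 chemokine receptor genes that bind CC ligands, 6 were tested for LPS vs control, with 3 called higher and 1 lower. Ccr2, the receptor of Ccl2, Ccl7 and Ccl12, was at 89, 65 and 73 in control, 57, 28 and 30 in oxLDL and 30, 6 and 13 with LPS. It was lower with LPS, with a log2 fold change of -2.39 and adjusted p = 0.00505. Ccrl2, an atypical receptor that does not signal, rose with a log2 fold change of 4.01 and adjusted p = 8.06e-06, followed by Ccr7 with 2.68 and Ccr9 with 2.13, both on low counts. Ccr1 had a log2 fold change of -0.18 and was not called. For oxLDL vs control no receptor was called without the block, and with it Ccr2 (-1.02) and Ccrl2 (-0.37) were called lower and Ccr1 (0.49) higher. For oxLDL+LPS vs LPS with the block, Ccrl2 (-0.52) was called lower.

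Of 34 genes of Toll-like receptor 4, NF-κB, interferon and interleukin-4 signaling, 33 were tested, with 24 higher and 3 lower with LPS. The 3 with the largest rise were the interferon-response factor Irf7 (6.77), the NF-κB inhibitor Nfkbia (5.21) and Irf1 (5.11), on the log2 scale. Irak1 (-0.55), Irak4 (-0.39) and Tlr4 (-0.34) were the 3 called lower. For oxLDL+LPS vs LPS no gene of this list passed without the block. With the block 10 were called lower and 1 higher. The NF-κB subunits Rel (-0.64), Nfkb2 (-0.41) and Nfkb1 (-0.38), the inhibitor Nfkbia (-0.42), Irf4 (-0.95), Ifnar1 (-0.42), the co-receptor Cd14 (-0.35), Ikbkb (-0.27), Ticam1 (-0.26) and Il4ra (-0.24) were lower, and Ikbkg (0.60) was higher. For oxLDL vs control Rel (-0.34), Stat2 (-0.25), Irak2 (-0.20) and Tlr4 (-0.18) were called lower with the block only.

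All 8 listed regulators of mRNA turnover were tested, with 5 higher and 1 lower with LPS. Zc3h12c (3.92), Zc3h12a (3.70), which encodes the RNase regnase-1, and Zfp36 (1.91), which encodes the decay factor tristetraprolin, rose most on the log2 scale. Zfp36l2 (-1.49) was lower, and Zfp36l1 (-0.50) and Khsrp (-0.05) were not called. For oxLDL+LPS vs LPS with the block, Zc3h12a (-0.54), Zfp36 (-0.46) and Zc3h12c (-0.30) were called lower, and none was without it. Of the other cytokine genes, Il1b (-2.16), Il6 (-2.18) and Tnf (-0.67) were lower, called with the block only.

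Across the 12 libraries the ligands followed each other closely, as a description over 12 points that share the 2 treatments. Pearson correlations of log2(value + 1) were 0.995 between Ccl3 and Ccl4, neighbors on opposite strands, and 0.992 between Ccl2 and Ccl7. Ccl8 was the least alike, from 0.484 with Ccl9 to 0.723 with Ccl17. Among 13472 genes outside the family, the pattern of Ccl3 was most like that of Ptgs2 (0.999) and Il1a (0.998), and that of Ccl4 most like Junb and Usp12 (both 0.999). Ccl12 was most like Cxcl11 (0.997) and A630012P03Rik (0.996), Ccl5 like P4ha1 (0.997) and Ak4 (0.996), and Ccl9 like Morc3 and Pnpt1 (both 0.996). For Ccl2 these were Gtf2f1 (0.992) and Acbd3 (0.991), for Ccl7 Hnrnpab (0.992) and Rcn1 (0.989), and for Ccl22 Mapre1 (0.992) and Pi4k2a (0.99). Ccl8 and Ccl17 reached lower values, 0.944 with Son and 0.939 with Trio for Ccl8, and 0.955 with Vwa5a and 0.952 with C78339 for Ccl17.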

How the data were processed

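Libraries were prepared by the authors from poly(A) RNA with a directional kit and sequenced as 150-base pairs. Per the labels and methods, reads were trimmed with Trimmomatic 0.32, aligned to mm10 with STAR 2.5.1b and counted by featureCounts against GENCODE release 4; the strand setting is not given in the sources used here. The deposited signal values are whole numbers, counts that the authors divided by 1 factor per library, so count models were not used. The factors were estimated here from the steps of the values, and the step was tested on simulated data. Of 43278 symbols, 18273 were at 0 throughout. Genes with at least 10 in at least 3 libraries of a fit were tested with limma 3.58.1 (R 4.3.3, trended variance) on log2(value + 1), with Benjamini-Hochberg adjustment over all genes and a threshold of 0.1, the study's. Log2 fold changes are on that scale and understate those of low genes. Listed genes missing from the table were sought under older symbols in RefSeq (Adgre1 is Emr1), and some listed genes are counted but not reported here by name.

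Replicate numbers were taken to pair libraries because every same-number correlation of deviations from group means, 0.283 to 0.711 over the 4 comparisons, exceeded 0.1. The study pooled the cells and split each pool, and its methods name no block. Without the block, p-values set a difference against the spread between these 3 pools. With the block that spread is removed, and p-values measure how evenly the difference held over the 3 pools. Permutation tests were exact and two-sided. The 10 ligands and all gene lists were chosen with earlier results of these data known. Named beside the ligands were genes of the lists called in an oxLDL comparison, other ligands with a mean of at least 100, the 3 largest changes each way with LPS, and the 2 genes most correlated with each ligand. Promoter sequences and motif shares are from RefSeq (GRCm38.p6). Intervals of 95% and the floor of 3 reads cover the spread of the fit and counting error. Alternatives tried were the block, a pseudocount of 5, other filters and scalings, other variance settings, 1 fit over all 12 libraries, and leaving out each library or number.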

Additional observations from a re-analysis of the deposited data

Results flagged for a closer look

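For 3 ligands the oxLDL effect had opposite directions without and with LPS in every replicate number: Ccl2, Ccl7 and Ccl9 were higher with oxLDL in all 3 unstimulated pairs and lower in all 3 LPS pairs. Of tested genes, 17.5% were higher in all 3 unstimulated pairs and 24.4% lower in all 3 LPS pairs. The share of genes with both was not computed. The difference of the 2 effects on the log2 scale was -1.96 for Ccl2, -2.05 for Ccl7 and -0.70 for Ccl9. The interaction test did not pass for any of them (limma adjusted p = 1 for each without the block, and 0.695, 0.668 and 0.657 with it), so the opposite directions are a description of 3 pools. No group here has 4 or more libraries, so single libraries were not screened as outliers.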

How the results depend on the processing

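Of 1013 results recomputed under alternatives, 953 were labeled the same. For a ligand this means the same direction and the same side of the threshold. For a count of calls it means an equal count or a ratio of at most 1.5, whatever the split by direction. The ligands of the LPS comparisons, where tested, kept their direction and side, with Ccl8 as the exception. It lost its call for LPS vs control under equal totals. Its log2 fold change in oxLDL cells turned to -0.20 there and ran from -0.10 to 0.43 with 1 library left out. With the replicate block, 601 genes and 1 ligand were called for oxLDL vs control, and 1682 genes and 9 ligands for oxLDL+LPS vs LPS, against 0 without it. Among the 10 ligands the block changed no other call. Blocked fits of 2 groups without 1 replicate number leave 1 residual degree of freedom a gene, so their counts of calls are a description only. Leaving out number 1, 2 or 3 they called 214, 139 and 1285 genes for oxLDL vs control, with 2 ligands, Ccl2 and Ccl9, without number 3. For oxLDL+LPS vs LPS they called 71 genes without number 1 and 2945 genes and 9 ligands without number 2, and for the interaction 9 genes without number 2. For oxLDL vs control, in such fits, Ccl5 turned to 0.22 without number 2 and Ccl3 to 0.0018 without number 3. A fit over all 12 libraries called 29 genes for oxLDL+LPS vs LPS.

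With 1 library left out and no block, oxLDL vs control log2 fold changes ranged from -0.041 to 0.79 for Ccl2, -0.18 to 0.017 for Ccl3, -0.80 to 0.89 for Ccl5, -0.066 to 1.00 for Ccl7, -0.43 to 0.15 for Ccl8 and -0.10 to 0.46 for Ccl9. For oxLDL+LPS vs LPS 0 to 91 genes and 0 to 3 ligands were called, the highest without oxLDL+LPS replicate 2. For the interaction 0 to 6 genes were called, and Ccl5 ranged from -1.21 to 0.48. The cause of these changes was not tested, beyond fewer libraries per fit. Ccl17 and Ccl8 are limited by depth.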
